A study of Mus musculus with 6 samples.

Results

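The 6 genes described here encode, or are named with, the proteins that replace histones in the sperm head. They are the protamine genes Prm1, Prm2 and Prm3, the transition protein genes Tnp1 and Tnp2, and Hils1, which encodes a linker histone of spermatids. They were taken by name from the 32285 genes of the matrices, by a rule that used no measured value, although the set was proposed with earlier results of these data known. In the data they were spermatid genes, as their names say, with their highest levels in barcodes that carried spermatid markers.

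Unique molecular identifiers (UMIs), each of which marks 1 captured RNA molecule, were counted per gene and per cell barcode in 6 libraries of dissociated whole mouse testis. Of these, 3 were labelled HFD (high-fat diet) and 3 LFD (low-fat diet), each given for 2 weeks up to an age of 8 weeks. All were male mice of the C57BL/6 background, given as C57BL/6N in the methods of the study, with 3 mice per diet. No allele or transgene was named for any group. The diet was taken from the library labels. The names of the deposited matrices give the opposite diet for every library, so each signed diet difference below would turn round if those names were right, while p-values and counts of calls would stay as they are.

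In developing sperm, histones are removed from the DNA as the spermatid elongates. Transition proteins take their place for a time, and protamines then replace these, so that the DNA is wound into a dense and silent form. Because transcription stops as the nucleus condenses, the mRNAs of these proteins are made early in round and elongating spermatids and stored until they are translated. The mRNA and its protein therefore need not appear at the same stage, and only the mRNA was measured here.

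Tnp2, Prm3, Prm2 and Prm1 lie in this order within 8.889 kb on the minus strand of mouse chromosome 16, at chr16:10787935-10796823 in mm10 (GRCm38.p6), and the annotation lists these 4 genes there. Tnp1 lies on the minus strand at chr1:73015074-73015899 and Hils1 on the plus strand at chr11:94967593-94968456. Prm3 and Hils1 are annotated with 1 exon, Tnp1 and Tnp2 with 2 exons, and Prm1 and Prm2 with up to 3. Antisense models overlap Prm1 (Gm46563) and Tnp1 (1700027A15Rik), a processed pseudogene (Gm10343) lies opposite Prm1, and Hils1 lies opposite the muscle gene Sgca. The strand setting of the counting is not given in the sources used here, so reads of these 3 genes and of their partners may not be fully separated.

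The 6 promoters are shown because 4 of the genes are neighbours and yet, as described below, Prm3 took its largest step earlier than Prm1, Prm2 and Tnp2 beside it. Each line holds the 120 bases before the start of the gene, 5′ to 3′ on the strand of the gene, from RefSeq on GRCm38.p6. Capitals mark the letters TGANNTCA (read on both strands), which take in the element TGACGTCA of the spermatid activator CREM and its variants at the middle bases, and the letters TATAA where they stood within 50 bases of the start on the strand of the gene. The positions are chr16:10796824-10796943 for Prm1, chr16:10792106-10792225 for Prm2, chr16:10790915-10791034 for Prm3, chr1:73015900-73016019 for Tnp1, chr16:10788656-10788775 for Tnp2 (all on the minus strand) and chr11:94967473-94967592 for Hils1 (plus strand).
Prm1: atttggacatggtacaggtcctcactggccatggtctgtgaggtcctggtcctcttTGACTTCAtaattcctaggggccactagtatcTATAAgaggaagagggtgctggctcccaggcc
Prm2: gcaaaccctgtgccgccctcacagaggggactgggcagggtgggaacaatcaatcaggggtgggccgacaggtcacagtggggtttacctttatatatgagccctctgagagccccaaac
Prm3: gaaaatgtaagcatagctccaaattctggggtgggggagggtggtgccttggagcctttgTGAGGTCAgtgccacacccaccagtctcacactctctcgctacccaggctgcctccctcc
Tnp1: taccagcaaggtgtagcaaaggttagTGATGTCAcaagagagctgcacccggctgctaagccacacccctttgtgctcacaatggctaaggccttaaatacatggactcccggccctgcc
Tnp2: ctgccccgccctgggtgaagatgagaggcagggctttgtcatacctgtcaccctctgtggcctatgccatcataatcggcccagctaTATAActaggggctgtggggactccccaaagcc
Hils1: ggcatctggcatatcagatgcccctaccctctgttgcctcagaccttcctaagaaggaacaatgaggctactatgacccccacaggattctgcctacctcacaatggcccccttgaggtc

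Within 250 bases before the start, 3 of the 6 promoters held TGANNTCA, at 64 to 57 bases before the start in Prm1, 60 to 53 in Prm3 and 94 to 87 in Tnp1. Of 32851 mouse promoters of the same length, 11.9% held these letters. The full palindrome TGACGTCA stood in 0 of the 6 promoters and in 1.55% of all. TATAA on the strand of the gene within 50 bases of the start stood in Prm1 (32 to 28 bases before it) and Tnp2 (33 to 29 bases), against 4.93% of all promoters, and Prm2 held it on the opposite strand only (30 to 26 bases). The 6 promoters held 0 to 2 CpG pairs each, and their GC content ran from 45.6% in Hils1 to 56.4% in Prm3. As described below, TGANNTCA stood both in Prm3, which rose early, and in Prm1 and Tnp1, which rose later. TATAA, counted on either strand within 250 bases, stood in 3 of the 4 genes that rose later and in neither Hils1 nor Prm3. Counted in this way it stood in 22.8% of all promoters, and this is a description of 6 promoters only.

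The 6 libraries held 48939 barcodes and 429495465 UMIs, of which 17002248 UMIs (3.96%) came from the 6 genes. Library totals ran from 39196921 to 95845514 UMIs. Barcodes were grouped by a clustering that used neither the variation nor the totals of the 6 genes, so that their levels could be compared between stages. A class name was given where at least 4 markers of a germ cell type or of a somatic cell type of the testis had their highest level in a cluster. The largest cluster (17563 barcodes, 35.9%) had 4 red cell markers, all haemoglobin genes, at their highest level and was left unnamed. In total 36944 barcodes (75.5%), which held 27.4% of the UMIs, received no name and are called unnamed below. Both libraries numbered 1 stood apart in 2 ways that touch the results: elongating spermatid-like barcodes made up 12.7% and 12.4% of their barcodes against 2.09% to 5.04% in the other 4, and the summed haemoglobin level was 0.0209 and 0 CPM (counts scaled to a common library total) against 30.5 to 99.7 CPM. HFD replicate 2 stood apart as well: an unnamed cluster led by Gm10847 and Gm49304 held 25.1% of its barcodes against 0.648% or less in each other library, and an unnamed cluster led by Gm10847 and Pomc held 7.0% against 1.36% or less. Any 2 libraries shared 12 to 28 barcodes, at most 0.320% of the smaller library. Results that rest on the libraries numbered 1 or on HFD replicate 2 are therefore given with and without them.

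The germ cell classes were spermatogonia- and early spermatocyte-like (1701 barcodes), pachytene spermatocyte-like (1367), spermatocyte to round spermatid-like (3827), round to elongating spermatid-like (729) and elongating spermatid-like (3186). In the last class 9 markers of elongating and condensing spermatids, among them Oaz3, Akap4, Gapdhs and Smcp, had their highest level. The somatic classes were Sertoli-like (743 barcodes, with 12 Sertoli markers) and a mixed class of macrophage-, peritubular- and Leydig-like barcodes (442). A further cluster of 2923 barcodes had its highest levels for 3 early round spermatid markers (Acrv1, Spaca1 and Catsper3) and stayed unnamed under this threshold, which was set after the clusters were seen. It held 3.83%, 8.15% and 5.78% of the barcodes labelled HFD and 8.06%, 3.34% and 9.53% of those labelled LFD (replicates 1 to 3).

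Onset was read in 2 ways: as the change between neighbouring classes within each library, and as a position along a continuous order of the spermatocyte and spermatid barcodes, from 0% (pachytene) to 100% (condensing), that was made without the 6 genes. The order held 8919 barcodes, and its class medians were 7.73% for pachytene spermatocyte-like, 37.0% for spermatocyte to round spermatid-like, 62.9% for round to elongating spermatid-like and 83.2% for elongating spermatid-like barcodes. Levels are given in CPM of all UMIs in a class or in 1 of 10 equal groups along the order, with the SD over the 6 libraries. Since each molecule was counted once, levels of different genes were compared as molecules and not scaled by length.

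Hils1 rose first. From pachytene spermatocyte-like to spermatocyte to round spermatid-like barcodes its level went from 36.2 ± 10.8 to 1035 ± 91.0 CPM, a log2 difference of 4.84 ± 0.48 (SD, n = 6 libraries), and it was higher in 6 of 6 libraries. Along the order it reached 50% of its own highest level at 45.4%, 45.6% and 45.2% of the barcodes in the HFD libraries and at 43.4%, 44.4% and 42.1% in the LFD libraries. In all libraries these positions came before those of each of the other 5 genes, also with 20 groups of barcodes, with an order by marker score (late minus early spermatid markers) and at 25% of the highest level. Its highest level was 2760 CPM near 65% of the order, in round to elongating spermatids.

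Hils1 also fell first. At 75% of the order its level still lay between 2048 and 2613 CPM, and at 85% between 359 and 586 CPM. It fell below 50% of its highest level at 80.0% ± 0.870 (SD, n = 6) of the order, ahead of the other genes. Between the round to elongating and the elongating class it was the 1 gene of the 6 that fell in CPM, by 0.80 ± 0.21 on the log2 scale, in 6 of 6 libraries. The mean number of molecules per barcode fell in all 6 genes there, from 119 to 18.4 for Hils1 and from 1286 to 856 for Prm1. Median depth went from 40870 to 8220.5 UMIs across this step, so a rise in CPM was a larger share of a smaller total.

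In CPM, Prm3 rose over a long span. Although named with the protamines, its protein is acidic and is not known to be a DNA-packing protamine of the usual kind. Its level rose from 44.3 ± 18.8 CPM in pachytene spermatocyte-like to 740 ± 154 CPM in spermatocyte to round spermatid-like barcodes, by 4.13 ± 0.62 on the log2 scale, which was the same early step as in Hils1. It then rose by 1.57 ± 0.12 and by 0.57 ± 0.06 in the next 2 steps, while its chromosomal neighbours took their main step there. Its level at 45% of the order was 989 CPM and at 85% was 4408 CPM, its highest CPM of the 10 groups in all 6 libraries. In molecules per barcode Prm3 stood at 38.2 at 45%, 76.9 at 55%, 78.3 at 65%, and 63.8 at both 75% and 85%. Median depth went from 38869.5 UMIs at 55% to 12216.5 at 85%. The late climb and the positions read from it are therefore those of CPM. Prm3 reached 50% of its highest CPM at 61.2%, 65.6% and 66.2% in the HFD libraries and at 63.4%, 63.6% and 61.7% in the LFD libraries, a wider spread than in Tnp1 or Tnp2.

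Tnp1 and Tnp2, which encode the 2 transition proteins, took their steep rise together. From spermatocyte to round spermatid-like to round to elongating spermatid-like barcodes, Tnp1 rose from 842 ± 178 to 14129 ± 2130 CPM and Tnp2 from 736 ± 141 to 20951 ± 3536 CPM. These steps were 4.08 ± 0.34 and 4.84 ± 0.41 on the log2 scale, each in 6 of 6 libraries. Both genes reached 50% of their highest level within a narrow window, at 64.8% to 66.8% of the order for Tnp1 and 64.4% to 66.4% for Tnp2. The difference between them (−0.197 ± 0.225 percentage points for Tnp2 minus Tnp1) did not pass the test (adjusted p = 0.0938, exact sign-flip test). With 20 groups Tnp2 was ahead of Tnp1 in 6 of 6 libraries, by 0.667 ± 0.521 percentage points (adjusted p = 0.0391, exact sign-flip test).

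Tnp1 went up slowly from 25% to 45% of the order, ahead of this step, while Tnp2 showed no steady climb. Tnp1 was at 501 ± 185 CPM at 5%, 313 ± 124 at 15%, 516 ± 180 at 25%, 678 ± 317 at 35% and 890 ± 157 at 45%. In molecules per barcode it stood at 18.6, 21.2, 18.1, 24.4 and 34.6 in these groups. Its CPM at 15% and 25% went with median depths of 63764 and 30683.5 UMIs. Tnp2 was at 549 ± 202, 367 ± 151, 603 ± 219, 701 ± 344 and 617 ± 156 CPM in the same groups. At 45% Tnp2 was thus within the range of the early groups, where its molecules were at the background described below. At 45% the log2 ratio of Tnp2 to Tnp1 was −0.56 ± 0.23, below 0 in all 6 libraries, with Tnp2 at that background. At 65%, inside the steep rise, it was 0.60 ± 0.16, above 0 in all 6. Hils1 outnumbered Tnp1 at 45% of the order (log2 ratio 0.70 ± 0.38) and was far below it at 85% (−5.65 ± 0.38).

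Prm1, the protamine gene that is shared across mammals, rose in the same steep window as Tnp1 and Tnp2. Its level went from 1321 ± 358 CPM in spermatocyte to round spermatid-like to 29393 ± 6015 CPM in round to elongating spermatid-like and 71277 ± 10630 CPM in elongating spermatid-like barcodes. Along the order it reached 50% of its highest level at 64.9%, 69.1% and 66.3% in the HFD libraries and at 65.9%, 67.1% and 66.0% in the LFD libraries. It was later than Tnp1 by 0.901 ± 0.891 and than Tnp2 by 1.10 ± 0.985 percentage points, in 6 of 6 libraries each.

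Prm2, whose protein is made as a longer precursor that is trimmed after it binds DNA, rose last by this measure in CPM. It reached 50% of its highest level at 77.7%, 69.6% and 70.0% in the HFD libraries and at 76.5%, 68.4% and 75.0% in the LFD libraries. The 3 libraries with the latest positions had their highest Prm2 level in the last of the 10 groups and the other 3 at 85%. This split came with the 10 groups: with 20 groups Prm2 was highest at 92.5% in all 6 libraries and reached 50% of that level at 80.4%, 80.8% and 77.1% in the HFD and at 81.2%, 75.6% and 79.2% in the LFD libraries. Its first steep step was as early as that of Prm1: from spermatocyte to round spermatid-like to round to elongating spermatid-like barcodes it rose by 4.50 ± 0.57 on the log2 scale, against 4.51 ± 0.58 for Prm1. In molecules per barcode Prm2 stood at 130 at 55%, 1031 at 65%, 1033 at 75% and 1212 at 85% of the order. Prm1 stood at 143, 1324, 1513 and 1232 in these groups. Median depth went from 33194 UMIs at 65% to 4595 at 95%. The late position of Prm2 is therefore that of CPM.

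At 50% of the highest CPM and with 10 groups, the mean positions ran in the order Hils1, Prm3, Tnp2, Tnp1, Prm1 and Prm2. Of the 15 pairs of genes, 12 differed in rise position in the same direction in 6 of 6 libraries (adjusted p = 0.0391 each, exact sign-flip test, where the smallest unadjusted p for 6 libraries is 0.031). Those that did not pass were Prm3 against Tnp1 and against Tnp2 (adjusted p = 0.0670 each), and Tnp1 against Tnp2.

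The place of Prm3 in this order depended on how position was read. With 20 groups Prm3 was later than Prm1 in HFD replicate 2 (68.7% against 66.5%) and in HFD replicate 3 (67.1% against 66.8%), and by marker score it was later in HFD replicate 2 (70.5% against 68.4%), so that this pair no longer passed the test (adjusted p = 0.288 and 0.156, exact sign-flip tests). At 25% of the highest level Prm3 was at 45.8% to 47.4% of the order, ahead of Tnp1 (59.0% to 60.5%) and Tnp2 (59.1% to 60.5%) in 6 of 6 libraries (adjusted p = 0.0361 each, exact sign-flip test). At that level Prm2 preceded Prm1 in HFD replicate 2 (62.3% against 62.9%), and this pair did not pass (adjusted p = 0.0938, exact sign-flip test). The number of pairs with 1 direction in 6 of 6 libraries was 12 with 20 groups, 11 by marker score and 13 at 25% of the highest level. Under all 4 readings 10 pairs kept the same direction in every library, namely Hils1 before each other gene, Tnp1 and Tnp2 before Prm1, and Prm3, Tnp1 and Tnp2 before Prm2. All 4 readings were of CPM, and the marker score set pachytene barcodes after spermatocyte to round ones. The order of rise in molecules per barcode was not tested. Groups were small in the 20-group reading, with 8 barcodes in the smallest.

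**Figure D1:**
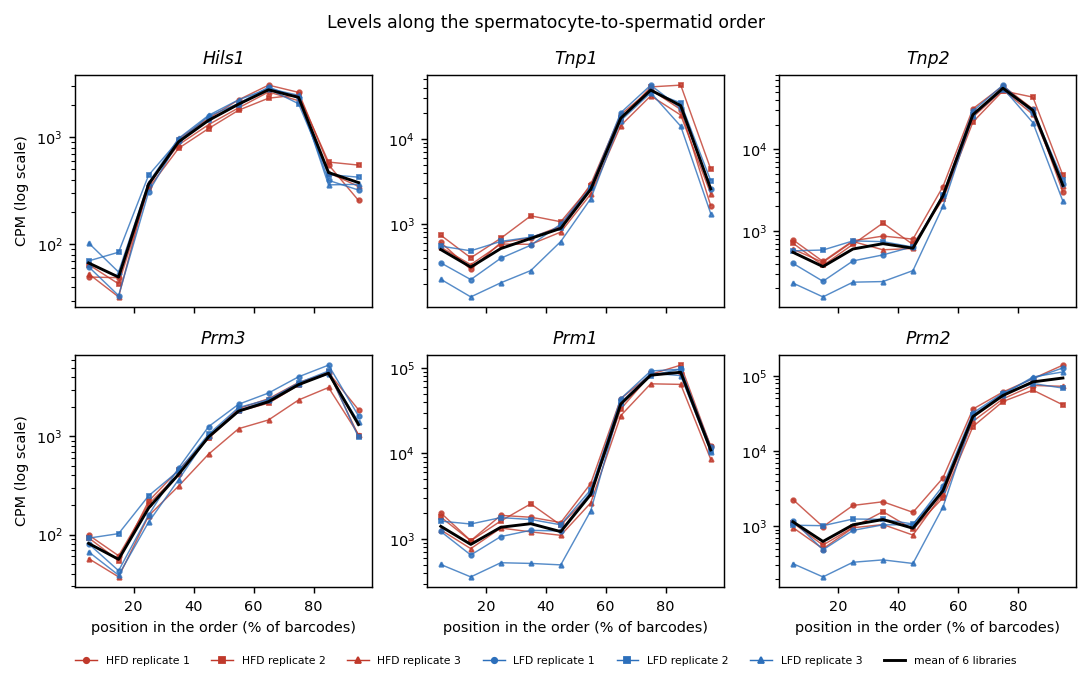
Level of each gene in CPM (log scale) against position in the order of spermatocyte and spermatid barcodes (percent, 10 groups of barcodes), with 1 line per library (red HFD, blue LFD) and the mean of 6 libraries in black. Hils1 and Prm3 climb from about 25% on. Tnp1 climbs slowly from 516 CPM at 25% to 890 CPM at 45%, after 501 CPM at 5% and 313 CPM at 15%. Prm1, Prm2 and Tnp2 show no steady climb before about 45%. Tnp1, Tnp2, Prm1 and Prm2 then rise steeply, and Prm2 alone stays high in the last group of the order.

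The steps between classes separated the same 2 groups of genes. In the step from pachytene to spermatocyte to round spermatid-like barcodes, Hils1 and Prm3 rose by more than 4 on the log2 scale, Tnp1 by 1.65 ± 0.44, Tnp2 by 1.34 ± 0.40, Prm2 by 0.95 ± 0.31 and Prm1 by 0.78 ± 0.24. All 24 steps in CPM (4 transitions of 6 genes) went in 1 direction in 6 of 6 libraries. The adjusted p was 0.031 each (exact sign-flip test), the smallest that 6 libraries allow. The first transition, from spermatogonia- and early spermatocyte-like to pachytene spermatocyte-like barcodes, was a fall in all 6 genes, by 1.81 to 2.09 on the log2 scale. Median UMIs per barcode rose from 7987 to 43259 across that transition, while the median number of Prm1 molecules per barcode stayed of the same order (13 to 36 and 15 to 59.5).

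As background, the mean count per Sertoli-like barcode of the same library was subtracted, with values below 0 set to 0. Then 14 of the 24 steps kept 1 direction in all 6 libraries. These were both later transitions in all 6 genes (12 steps) and, in the transition from pachytene to spermatocyte to round spermatid-like barcodes, Hils1 (9.38 ± 1.09) and Prm3 (9.02 ± 0.67) alone. In that transition Tnp1 rose above the background in 3 of 6 libraries, Prm1 and Tnp2 in 1 each, and Prm2 in 0. The Sertoli-like means of Prm1, Prm2 and Tnp2 were 97.7, 96.5 and 49.9 molecules per barcode. Pachytene barcodes held 41.3, 29.3 and 15.9 and spermatocyte to round ones 52.9, 41.6 and 29.3. For Prm1 the Sertoli-like mean lay well above the median counts given below. A rise that stayed under these means could not show, so the subtraction cannot decide on an early rise of these 3 genes. Mean counts of Hils1 and Prm3 per pachytene barcode (1.87 and 2.27) lay below those per Sertoli-like barcode (4.91 and 6.78). Their step sizes were thus set largely by the later level and the 1 CPM added before the log, and are not fold changes. The fall from spermatogonia was not seen after this subtraction, since the level before and after it was at or below that of the Sertoli-like class, except for Hils1 in 1 library. Of the 14 steps none passed the test (adjusted p = 0.0536), because the adjustment ran over 10 steps with little or no difference left.

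A finer clustering split the spermatocyte to round spermatid-like class. From late spermatocyte and early round to round spermatid-like barcodes (1446 barcodes), Prm3 rose by 2.42 ± 0.15, Hils1 by 1.64 ± 0.15, Tnp1 by 1.62 ± 0.31, Tnp2 by 1.31 ± 0.31, Prm2 by 0.73 ± 0.26 and Prm1 by 0.53 ± 0.20 on the log2 scale, each in 6 of 6 libraries (adjusted p = 0.0375 each). In this round spermatid-like cluster Hils1 was the most abundant of the 6 genes (1740 CPM) and all lay within 1134 to 1740 CPM. Their shares of the summed UMIs of the 6 genes were 20.4% for Hils1, 18.2% for Prm1, 16.7% for Prm3, 16.1% for Tnp1, 15.5% for Prm2 and 13% for Tnp2. In molecules per barcode Prm1, Prm2 and Tnp2 stood at 66.5, 56.2 and 46.5, below the Sertoli-like means of 97.7, 96.5 and 49.9. Hils1, Prm3 and Tnp1 stood at 70.7, 59.1 and 57.9, above 4.91, 6.78 and 36.3. No background was subtracted in this step. The rises of Prm1, Prm2 and Tnp2 and the like shares cannot be read apart from background.

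The elongating class was split by the finer clustering into a Cby3-led cluster (1863 barcodes, named here by its leading gene) and a condensing spermatid-like cluster (1391 barcodes). The 6 genes parted between them. From the first to the second, Tnp1 fell by 3.74 ± 0.47, Tnp2 by 3.73 ± 0.38, Prm1 by 2.5 ± 0.15, Hils1 by 2.31 ± 0.44 and Prm3 by 0.92 ± 0.27 on the log2 scale, each in 6 of 6 libraries (adjusted p = 0.0375 each). Prm2 did not pass the test there (0.51 ± 0.46, higher in 5 of 6 libraries, adjusted p = 0.109). The median position of the condensing barcodes in the order was 93.6%. At 95% of the order Prm1, Tnp1, Tnp2 and Hils1 stood at 59.7, 11.3, 17.6 and 1.64 molecules per barcode. These lay below the Sertoli-like means of 97.7, 36.3, 49.9 and 4.91. Prm3 stood at 8.23, little above 6.78, and Prm2 at 610, above 96.5. No background was subtracted in this step. The sizes of the falls, and the gaps between them, cannot be read apart from background.

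In the condensing cluster Prm2 accordingly made up most of the packing mRNA. Its level was 129212, 40366 and 73352 CPM in the HFD libraries and 121961, 70332 and 96044 CPM in the LFD libraries, so that it spread widely among libraries and the diets overlapped. Prm1 lay at 15808, 13658 and 10771 CPM in the HFD and 17803, 16848 and 13403 CPM in the LFD libraries. Prm2 was 77.5% and Prm1 14% of the summed UMIs of the 6 genes in this cluster.

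Along the order the genes fell in the sequence Hils1, Tnp2, Tnp1, Prm1 and Prm3. The mean positions at which they dropped below 50% of their highest level were 80.0%, 85.6%, 86.9%, 90.6% and 92.2%, and all 10 pairs differed in the same direction in 6 of 6 libraries (adjusted p = 0.031 each, exact sign-flip test). With 10 groups Prm2 did not drop below that level in any of the 6 libraries. With 20 groups it did so in HFD replicate 2 (95.4%), HFD replicate 3 (96.9%) and LFD replicate 2 (97.2%), and in HFD replicate 2 it went from 109813 CPM in the 9 barcodes at 92.5% to 15232 CPM in the 55 barcodes at 97.5%. The order of Tnp2 and Tnp1 was not kept with 20 groups either, where Tnp2 fell after Tnp1 in HFD replicate 2, and 9 of 10 pairs had 1 direction (adjusted p = 0.0521 each, exact sign-flip test). By marker score Prm1, Prm2 and Prm3 had no fall position in any library and Tnp1 had none in HFD replicate 2 and LFD replicate 2. At 25% of the highest level Prm3 had none in 4 libraries. The 1 pair with the same direction in 6 of 6 libraries under all 4 readings was Hils1 before Tnp2. Measured as molecules per barcode, which does not depend on the other genes, Prm1 went from 1232 at 85% to 59.7 at 95% of the order and Prm2 from 1212 to 610. The median total per barcode fell at the same time from 12216.5 to 4595 UMIs, so the CPM of Prm2 held up while its molecules per barcode did not.

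The log2 ratio of Prm2 to Prm1 went up late. Its mean lay between −0.58 and −0.09 in the first 9 groups of the order. In the last group it was 2.98 ± 0.67 (SD, n = 6), with a range from 1.77 to 3.50.

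**Figure D2:**
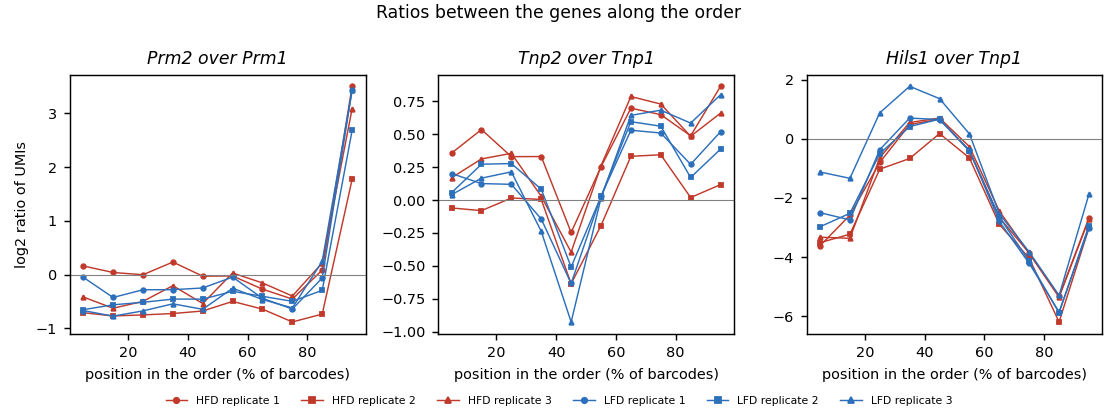
Log2 ratios of UMIs (Prm2 over Prm1, Tnp2 over Tnp1, Hils1 over Tnp1) against position in the order (percent), with 1 line per library (red HFD, blue LFD). Prm2 over Prm1 lies near or below 0 until 85% and then jumps to between 1.77 and 3.50 in all 6 libraries, Tnp2 over Tnp1 dips at 45%, and Hils1 over Tnp1 rises to a maximum and then drops. In the last group Prm1 was near its background, at 59.7 molecules per barcode.

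Together the 6 genes took up a large part of the mRNA of elongating spermatids. Their summed share of UMIs was 20.7% ± 2.19 (SD, n = 6) in the elongating spermatid-like class, 9.23% ± 1.65 in the round to elongating class, and 0.573% ± 0.101 in the spermatocyte to round class. Within the elongating class the Cby3-led cluster had a share of 22.4% ± 2.01 and the condensing cluster 11.2% ± 3.41.

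Each gene had its UMIs in different places. Of all UMIs of a gene, the elongating class held 50.1% for Prm1, 55.2% for Prm2, 48.9% for Tnp2, 45.6% for Tnp1, 32.0% for Prm3 and 15.6% for Hils1. The spermatocyte to round class held 39.2% of the UMIs of Hils1 and 25.8% of those of Prm3, against 3.2% to 5.39% for the other 4 genes. Unnamed barcodes held 20.9% to 26.4% of each gene, and each somatic class at most 1.33%.

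Molecules of the 6 genes were found in nearly every barcode, somatic ones included. In Sertoli-like barcodes, which support germ cells and are not known to transcribe these genes, 96.3% ± 3.92 (SD, n = 6 libraries) had at least 1 Prm1 UMI after each barcode was thinned to 1000 UMIs, and 100% had one before thinning. Median depth was 1955 UMIs in this class and 8220.5 in the elongating class. After the same thinning the share with Prm1 was 100% in elongating spermatid-like and 58.3% ± 13.1 in pachytene spermatocyte-like barcodes. The latter had a median depth of 43259 UMIs, and 99.96% of them had a Prm1 UMI before thinning. Thinning keeps a smaller part of the molecules of a deeper barcode, so the lower share in spermatocytes cannot be read apart from depth. With Prm1 in nearly all barcodes of both, its presence did not separate spermatids from somatic barcodes. For Prm2 the shares were 97.0% of thinned Sertoli-like and 45.2% of thinned pachytene spermatocyte-like barcodes.

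The number of molecules told the classes apart better than their presence. The median count of Prm1 per Sertoli-like barcode was 30, 39 and 25 in the HFD libraries and 33, 38 and 16 in the LFD libraries. In unnamed barcodes it was 28, 44 and 23 and then 32, 35 and 15, and in the spermatogonia- and early spermatocyte-like class 24, 36 and 20 and then 28, 32 and 13. These 3 classes had a like number of molecules within a library, and libraries ranked alike in them, with HFD replicate 2 highest and LFD replicate 3 lowest. In round to elongating spermatid-like barcodes the median was 1266, 886 and 696.5 in the HFD and 972.5, 821.5 and 802.5 in the LFD libraries, which did not overlap with any of these classes.

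Hils1 had the lowest such background. Its median was 1 or 2 molecules in Sertoli-like, mixed somatic, unnamed and spermatogonia-like barcodes of every library, 1 to 3 in pachytene spermatocyte-like barcodes, 28 to 42.5 in spermatocyte to round spermatid-like barcodes and 93 to 117.5 in round to elongating spermatid-like barcodes. Prm3 had a median of 1 to 3 molecules in the same somatic, unnamed and spermatogonia-like classes. Prm2 counted 10 to 33 and Tnp2 8.5 to 18 molecules per Sertoli-like barcode.

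**Figure D3:**
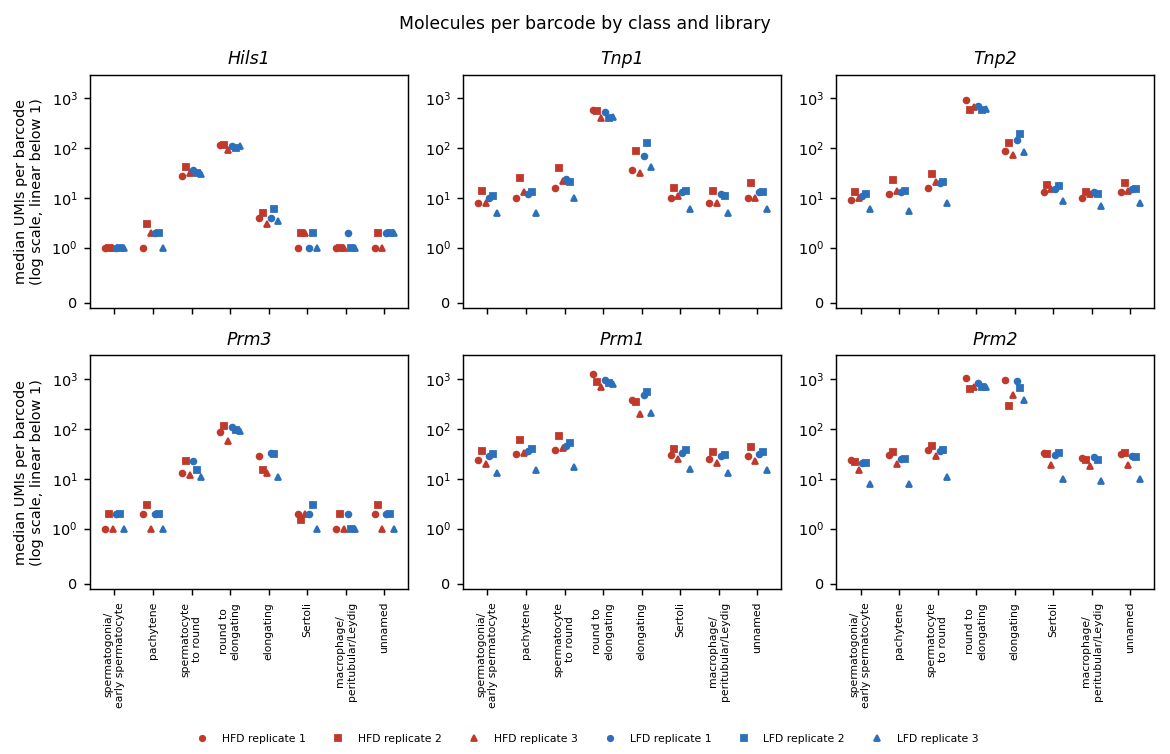
Median UMIs per barcode (log scale, linear below 1) of each gene in each class, with 1 point per library (red HFD, blue LFD; circle, square and triangle for replicates 1 to 3). Somatic, unnamed and early germ cell classes sit at a common low level for each gene, and the round to elongating class sits highest, with Prm1 at 696.5 to 1266.

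The make-up of the somatic molecules was compared with that of elongating spermatids. In Sertoli-like barcodes the 6 genes' UMIs were 33.9% Prm1, 33.7% Prm2, 16.6% Tnp2, 12.2% Tnp1, 2.14% Prm3 and 1.5% Hils1. In elongating spermatid-like barcodes they were 34.3%, 31.3%, 18.9%, 13.2%, 1.56% and 0.752%. Of 12 comparisons (6 genes in the 2 somatic classes against the elongating class), 0 passed the exact sign-flip test, with a smallest adjusted p of 0.0750. An unadjusted p under 0.05 was reached in 5, those with 1 direction in 6 of 6 libraries. These were Prm3 and Hils1, higher in both somatic classes, and Prm1, higher in the mixed somatic class. Unnamed barcodes held 34.9% Prm1, 29.0% Prm2 and 17.4% Tnp2, and pachytene spermatocyte-like barcodes 39.1%, 27.6% and 15.1%.

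**Figure D4:**
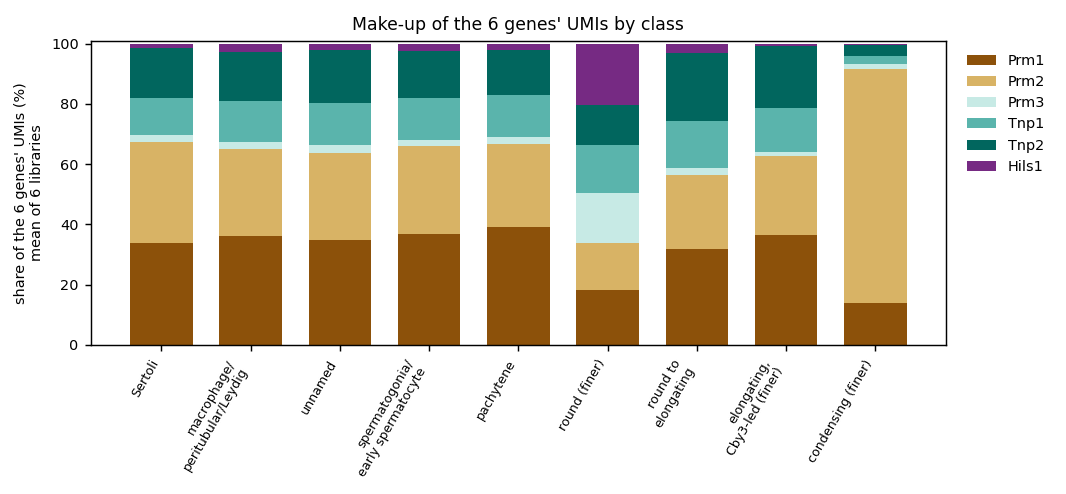
Share of the 6 genes' summed UMIs (percent, mean of 6 libraries) that each gene took in each class. Prm1 and Prm2 are the largest parts in somatic, unnamed, spermatogonia-like and pachytene barcodes and in the Cby3-led elongating cluster, the finer round spermatid cluster has 6 shares of like size, and Prm2 takes 77.5% in the condensing cluster. Background molecules were not subtracted.

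Levels in CPM and molecules per barcode differed in how far they set these classes apart. The Sertoli-like class, with a median of 1955 UMIs per barcode, had 13753 ± 4772 CPM of Prm1, and the pachytene spermatocyte-like class, with 43259 UMIs per barcode, had 798 ± 308 CPM. The mean number of Prm1 molecules per barcode was 97.7 ± 40.2 in the first and 41.3 ± 19.1 in the second. In the Sertoli-like class this mean lay well above the median counts given above, so it does not describe a typical barcode.

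The diet comparison asks whether 2 weeks of HFD moved these mRNAs in the testis. In UMIs summed over all barcodes of a library, the 6 genes made up 5.70%, 3.13% and 2.35% of the HFD libraries and 5.22%, 3.43% and 2.63% of the LFD libraries (replicates 1 to 3). The means were 3.73% ± 1.75 and 3.76% ± 1.32 (SD, n = 3 each), the groups overlapped, and the difference of −0.0306 percentage points had p = 1 in an exact permutation test (two-sided, smallest possible p 0.1). Both libraries numbered 1 were high. Within replicate 1 the difference was 0.486 and within replicates 2 and 3 it was −0.289 percentage points. The share of elongating spermatid-like barcodes was likewise highest in these libraries, at 12.7%, 2.09% and 5.04% in the HFD and 12.4%, 3.18% and 3.58% in the LFD libraries, and in such sums fewer spermatids and less RNA per spermatid cannot be told apart.

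Gene by gene, the diet differences in the whole testis were small against their errors. The log2 difference (HFD minus LFD, edgeR quasi-likelihood test) was −0.02 (SE 0.34) for Prm1, 0.13 (SE 0.42) for Prm2, −0.21 (SE 0.30) for Prm3, 0.07 (SE 0.30) for Tnp1, 0.09 (SE 0.31) for Tnp2 and −0.14 (SE 0.20) for Hils1, with adjusted p from 0.986 to 0.998. Of the 6 genes 0 were called, and of all 20727 genes tested 0 (0.00%) were called, with 471 at an unadjusted p under 0.05. DESeq2 called 0 as well, with 430 at an unadjusted p under 0.05. No gene of the 6 had diet groups that did not overlap, against 6.68% of all genes.

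Inside the elongating spermatid-like class the 6 genes made up 21.6%, 20.5% and 16.8% of UMIs in the HFD and 23.4%, 21.1% and 21.0% in the LFD libraries (19.6% ± 2.52 and 21.8% ± 1.36, exact permutation p = 0.3). HFD replicate 3 was the lowest and the groups overlapped. Within same-numbered libraries the difference was −1.82, −0.667 and −4.22 percentage points, lower in HFD in 3 of 3 (exact sign-flip p = 0.25, the smallest that 3 pairs allow). Prm1 was at 68989, 76570 and 51517 CPM in the HFD and 81923, 76487 and 72177 CPM in the LFD libraries. All 6 log2 differences were below 0, from −0.44 (Prm3) to −0.09 (Hils1), with a median of −0.26 against −0.01 over all genes, and 0 of the 6 were called (adjusted p = 0.996 each). Of 9515 genes 0 (0.00%) were called by edgeR, 357 had an unadjusted p under 0.05, and DESeq2 called 1. Scaling by library totals in place of TMM factors moved the median of all genes to 0.12 and turned Hils1 to 0.05. In this class same-numbered libraries deviated together in all 3 numbers (r = 0.575, 0.305 and 0.220). With the replicate number as a block edgeR called 123 of 9515 genes (1.29%), 120 of them higher in HFD, and 0 of the 6, among which Prm3 had the lowest adjusted p (−0.46, SE 0.13, adjusted p = 0.0595) and Prm1 the next (−0.38, SE 0.12, adjusted p = 0.113).

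In the round to elongating spermatid-like class the picture rested on 1 library. Prm1 was at 35685, 24422 and 20275 CPM in the HFD libraries and at 34912, 30975 and 30090 CPM in the LFD libraries. Prm2 was at 29582, 16110 and 18934 CPM and at 26382, 24040 and 22331 CPM, and Hils1 at 2996, 2238 and 2485 CPM and at 2841, 2795 and 2892 CPM. In each of these genes HFD replicate 1 was at the top of all 6 libraries and HFD replicates 2 and 3 were below all 3 LFD libraries.

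With all libraries, the 6 log2 differences in this class ran from −0.34 (Prm3) to −0.13 (Tnp2) and 0 of the 6 were called (adjusted p from 0.941 to 0.945). Of 10139 genes 0 (0.00%) were called, with 218 at an unadjusted p under 0.05, and DESeq2 called 0, with 71. Diet groups did not overlap in 7.25% of genes and in 0 of the 6. Same-numbered libraries deviated together here too (r = 0.348, 0.139 and 0.198), and with the replicate block 0 of the 6 were called (adjusted p from 0.808 to 0.827) among 1 of 10139 genes (0.00986%). Without HFD replicate 2, the library with its own unnamed clusters, the log2 differences ran from −0.35 (Prm3) to 0.04 (Tnp2), and 0 of the 6 were called (adjusted p = 0.999 each, edgeR).

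Without HFD replicate 1 all 6 genes were called lower in the libraries labelled HFD. The log2 differences were −0.64 (SE 0.10, adjusted p = 0.00450) for Prm1, −0.59 (SE 0.10, adjusted p = 0.00552) for Prm2, −0.57 (SE 0.13, adjusted p = 0.0159) for Prm3, −0.45 (SE 0.10, adjusted p = 0.0148) for Tnp2, −0.40 (SE 0.11, adjusted p = 0.0367) for Tnp1 and −0.39 (SE 0.09, adjusted p = 0.0152) for Hils1 (edgeR). In the same fit 788 of 10296 genes (7.65%) were called, 580 of them lower. With 2 libraries against 3, groups did not overlap in 42.6% of genes and in all 6 members.

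Without both libraries numbered 1, a choice made after the data were seen, 5 of the 6 were called (Tnp1 was not, −0.27, adjusted p = 0.125), among 456 of 10101 genes (4.51%), and groups of 2 and 2 libraries did not overlap in 52.1% of genes. These fits used 68 and 98 HFD barcodes for replicates 2 and 3. The median position of the barcodes of the class in the order was 63.5%, 61.1% and 62.3% in the HFD libraries and 63.5%, 62.6% and 62.6% in the LFD libraries, so HFD replicates 2 and 3 lay slightly earlier, at a place where the 6 genes rise steeply. The part of this shift in the result was not tested.

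**Figure D5:**
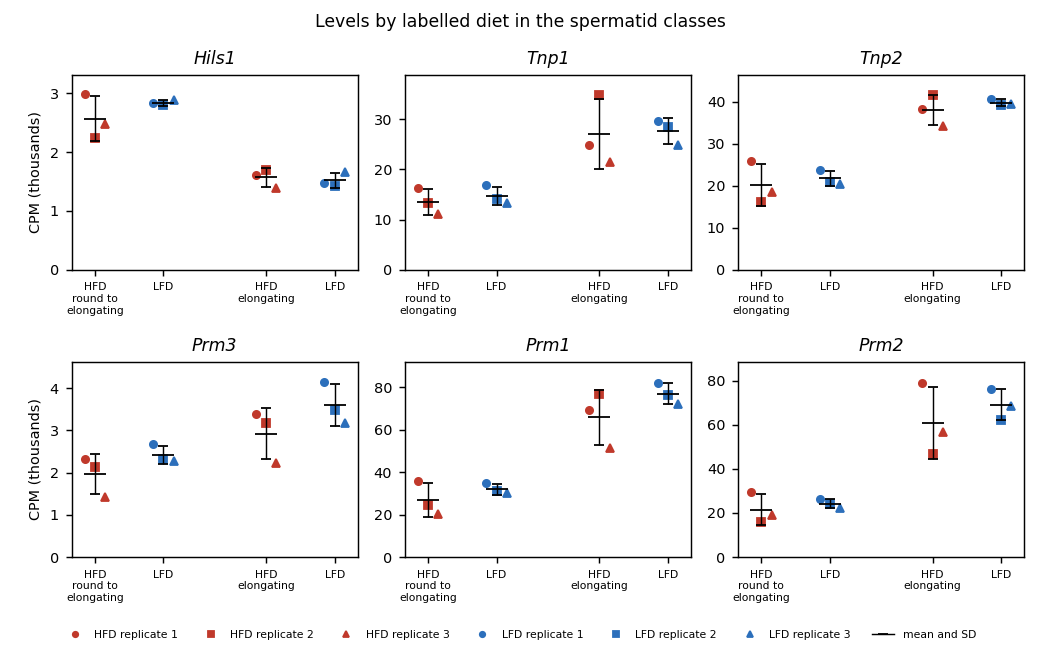
Level of each gene (CPM divided by 1000, axis from 0) in the round to elongating and the elongating spermatid-like class by labelled diet, with 1 point per library (circle, square and triangle for replicates 1 to 3) and the mean with SD. In the round to elongating class, HFD replicates 2 and 3 lie below all LFD libraries in each gene and HFD replicate 1 lies at or near the LFD libraries or above them.

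The rise and fall positions gave no diet difference that 3 against 3 libraries can show. The largest in rise was for Hils1, at 45.4% in the HFD and 43.3% in the LFD libraries on average, a difference of 2.11 percentage points with non-overlapping groups and the smallest p the design allows (exact permutation p = 0.1). With 20 groups it was 2.46 percentage points and the groups again did not overlap. The groups overlapped by marker score (a difference of 3.51, exact permutation p = 0.5) and at 25% of the highest level (0.404, exact permutation p = 0.5). Its fall position differed in the same direction, by 1.16 percentage points (exact permutation p = 0.1), with every HFD library later than every LFD library, which also held at 25% of the highest level (0.896 percentage points). With 20 groups (1.09) and by marker score (0.519) the groups overlapped (exact permutation p = 0.3 and 0.5). No p is adjusted here, since none could pass.

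In the somatic classes, where the molecules were at the background described above, the 6 genes were higher in the libraries labelled HFD in Sertoli-like barcodes, by 0.55 (Prm1) to 1.07 (Prm2, SE 0.46, unadjusted p = 0.0292) on the log2 scale, and 0 of 6 were called (adjusted p = 1.00 each, edgeR). Of 8400 genes 0 (0.00%) were called, with 339 at an unadjusted p under 0.05, and DESeq2 called 0. Diet groups did not overlap in 1 of the 6 (Prm3) and in 7.64% of genes. The Sertoli-like sums rested on 26 to 294 barcodes per library.

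Over the 7 named classes together the 6 genes were called in 0 of 42 fits, and 1 had an unadjusted p under 0.05. Among unnamed clusters, all 6 were lower in the libraries labelled HFD in a cluster of 1570 barcodes led by Zfp820 and Gm35256, where 4 had an unadjusted p under 0.05 (Hils1 −0.60, Prm3 −0.52, Prm1 −0.45 and Tnp2 −0.41) and 0 were called (adjusted p = 0.772 each for those 4, edgeR). Of 9621 genes there 0 (0.00%) were called, with 580 at an unadjusted p under 0.05. Groups did not overlap in 1 of the 6 (Tnp2) and in 11.2% of genes. In every other class and cluster tested, the diet groups of all 6 genes overlapped, where groups did not overlap for 7.35% of genes in the spermatogonia-, 6.80% in the pachytene, 8.34% in the spermatocyte to round, 7.10% in the elongating and 6.15% in the mixed somatic class, and for 6.32% to 8.50% in the other unnamed clusters (6.32%, 8.50%, 8.44%, 7.76% and 7.68%).

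Other genes of the same process followed several time courses. Of 13 histone genes and variants of spermatids, 2 had their highest germ cell level in the elongating class, 1 in the round to elongating class and 10 in earlier classes. H2al2a, a spermatid H2A variant, rose from 79.7 ± 13.1 CPM in the spermatocyte to round class to 1064 ± 136 and then 1819 ± 170 CPM in the 2 elongating classes, and H1fnt, a linker histone of the sperm nucleus, stood at 231 ± 24.0, 1332 ± 67.9 and 1757 ± 62.8 CPM. H3f3a and H3f3b, which encode the replacement histone H3.3, were at 1320 ± 161 and 1622 ± 147 CPM in the round to elongating and at 333 ± 74.9 and 324 ± 106 CPM in the elongating class.

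Of 26 factors that remodel or evict histones, 1 had its highest level in the elongating class, 3 in the round to elongating class and 22 earlier. Hmgb4, a high-mobility-group protein of germ cells, was at 3060 ± 159 CPM in the round to elongating and 3653 ± 492 CPM in the elongating class. Cdyl, a chromodomain protein that limits histone crotonylation, and Chd5, a chromatin remodeller, were highest in the round to elongating class, at 613 ± 28.1 and 284 ± 16.2 CPM. Hspa2, the chaperone of transition proteins, was highest in pachytene spermatocyte-like barcodes (1749 ± 128 CPM) and was at 189 ± 65.6 CPM in the elongating class.

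Of 19 regulators of transcription and mRNA storage of the packing genes, 0 had their highest level in the elongating class, 2 in the round to elongating class and 17 earlier. Ybx2 and Ybx3, which bind stored germ cell mRNA, were highest in pachytene spermatocyte-like barcodes (1366 ± 37.1 and 2775 ± 177 CPM) and still stood at 649 ± 39.0 and 840 ± 178 CPM in the elongating class. Fhl5, the partner of CREM in spermatids, was highest in the round to elongating class at 965 ± 56.9 CPM. Pabpc1, which binds poly(A) tails, went from 2835 ± 275 CPM in the pachytene to 284 ± 116 CPM in the elongating class. By diet, 0 genes of these 3 lists were called in the whole testis or in any named class or cluster tested (edgeR), and in the whole testis their medians were 0.01, 0.07 and 0.15 on the log2 scale, against 0.02 over all genes.

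The genes whose level over the 7 named classes was most like that of each member were found by Pearson correlation of log2 CPM over class means, as a description over 7 points that share libraries and depth. For Prm1 they were Defb33, Oxct2a and Klk1b26, and for Prm2 Bpifa3, Ttc24 and 1700009J07Rik. For Prm3 they were AI507597, Tsks and Morn3, and for Tnp1 Tnp2, Gm16867 and Ccdc57. For Tnp2 they were Ccdc57, Paqr5 and Cstl1, and for Hils1 Ropn1, Gm11213 and Spag4. All 18 correlations lay between 0.998 and 1.00. Tnp1 was the 1 member with another member among its nearest 3. Ropn1, which encodes a protein of the sperm tail, was at 1813 CPM in the round to elongating and 1178 CPM in the elongating class, the same direction as Hils1, and Tsks, a substrate of testis kinases, was at 731 and 913 CPM, the same direction as Prm3.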

How the data were processed

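Dissociated testes of 3 HFD and 3 LFD mice were run on a droplet platform with 10000 cells targeted per library. The labels and the study's methods name different kit versions, and the chemistry is therefore uncertain. Reads were aligned by the authors to mm10 with Cell Ranger 6.0.1, which also counted UMIs and selected the barcodes taken as cells. For 32285 genes the deposited files hold raw counts without normalization. Groups followed the diet in the library titles.

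The filters of the study (at least 200 and at most 40000 genes) removed 0 of 48939 barcodes. The 6 genes were left out before clustering (2000 variable genes, 30 principal components, 20 neighbours, Leiden resolution 0.3, finer 0.6, scanpy 1.11.5, leidenalg 0.10.2). Libraries were not integrated here, as they were in the study, so clusters and names were rebuilt and a difference from the study may come from that. The rule for class names (4 markers with their highest level in a cluster) was set after the clusters were seen. It was not applied to red cell markers.

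The order was a diffusion pseudotime without the 6 genes over barcodes thinned to 2000 UMIs (20 principal components, 30 neighbours, 10 diffusion components). It held 8919 of 9109 barcodes. A first setting, without thinning, placed the round to elongating cluster after the elongating one. The setting used was chosen by the order of clusters named from other markers, not by the 6 genes. Positions were read by interpolation over 10 groups of barcodes, and the fall position was a measure added after the data were seen.

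With the library as the replicate, UMIs were summed per library and class where each library had 20 barcodes or more. Sums were tested with the quasi-likelihood test of edgeR 4.0.16 with TMM and its default filter, HFD minus LFD, two-sided, with Benjamini-Hochberg adjustment over all genes of a sum and a threshold of 0.05, and with DESeq2 1.42.0 as the alternative. Stages, positions and composition were compared within libraries on log2(CPM + 1), positions or shares by exact two-sided sign-flip tests, and diets on single values by exact permutation tests. The study's methods give 3 mice per diet, as many as libraries, and p-values measure the spread between these samples. Doublets stayed in the main results. An alternative left out 3356 barcodes ranked highest by Scrublet, at an expected 0.8% per 1000 barcodes.

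Other genes were named by rule: at most 4 of each of 3 lists, those highest in the elongating class, and for each member the 3 genes with the highest correlation over the classes, among genes with at least 100 UMIs in the elongating class. The members and lists were chosen with earlier results of these data known. On simulated counts with 200 genes changed by a log2 of 1, edgeR recovered 80.0% with 11 false calls among 20410 genes of the whole testis and 91.0% with 21 false calls among 9889 genes of the round to elongating class.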

Additional observations from a re-analysis of the deposited data

Results flagged for a closer look

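Among 54 values tested for a library standing far from the other 5, 1 did: in the spermatocyte to round spermatid-like class Tnp2 was at 459 CPM in LFD replicate 3, while the other 5 libraries lay between 754 and 852 CPM. Chance gives about 1 such library in 20 groups. In the same library and class Prm1 (649 CPM) and Prm2 (448 CPM) were also the lowest of the 6 libraries, and Hils1 was the highest (1133 CPM). The median count of Prm1 in Sertoli-like barcodes was lowest in this library too, at 16 molecules. The part of that lower level in the Tnp2 value was not tested.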

How the results depend on the processing

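Of 300 diet values for single genes under the alternatives, 269 kept their direction and their side of the threshold, 11 passed the threshold only under an alternative and 20 turned round. The 11 were the calls in the round to elongating class without HFD replicate 1 or without both libraries numbered 1. No other alternative called any of the 6 genes, and the number called was 0 to 6 over the fits that left out 1 library and 5 without both libraries numbered 1, a choice made after the data were seen. Genes called in the whole testis numbered 0, 0 to 2 without 1 library, 93 without both libraries numbered 1 and 24 with the replicate block. Over the 7 classes they numbered 0, 0 to 2445 without 1 library (2445 without HFD replicate 1), 1631 without both libraries numbered 1, 2 with DESeq2, 78 with no filter on low counts and 126 with the replicate block. The cause of these moves was not tested.

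In the whole testis same-numbered libraries deviated together in replicate 1 (r = 0.573) but not in replicates 2 and 3 (−0.0478 and 0.10). In the elongating, round to elongating and mixed somatic classes r was over 0.1 in all 3 numbers, although in the elongating class HFD replicate 3 correlated best with LFD replicate 2 (0.417 against 0.220). No label says what a number stands for, and the replicate block changed no call of the 6 genes. Whole testis differences that turned round were those of Prm2 (−0.18 without both libraries numbered 1, −0.0569 over named classes), Tnp1 (−0.16 over named classes) and Tnp2 (−0.0485 and −0.10). Leaving out 1 library gave ranges of −0.54 to 0.31 for Prm1, −0.63 to 0.55 for Prm2, −0.63 to 0.0853 for Prm3, −0.30 to 0.41 for Tnp1 and −0.41 to 0.43 for Tnp2 there, −0.59 to 0.0188 for Prm2 and −0.45 to 0.0445 for Tnp2 in the round to elongating class, and −0.21 to 0.0173 for Hils1 in the elongating class, where Hils1 was 0.0461 without TMM. The difference in the summed share was 0.292 percentage points as a mean over barcodes and −1.02 to 0.698 without 1 library.

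With the Sertoli-like level subtracted 14 of 24 steps kept 1 direction in all libraries, and Hils1 turned to 0.43 from spermatogonia to pachytene. Of 72 step values 48 were as before, 23 missed the threshold and 1 turned round. With 5 libraries a sign-flip test cannot reach the threshold, so the range of 24 steps and of 12 to 14 pairs without 1 library counts direction alone. Of the fall pairs 6 were in 1 direction at 25% of the highest level, where 6 could be compared, 1 of 1 by marker score and 10 without any 1 library. Of 54 rise positions of single genes 9 moved by more than the SD of the libraries. Of the 12 make-up comparisons 3 had 1 direction in all libraries after thinning to 1000 UMIs and 5 to 6 without 1 library. A minimum of 1000 UMIs removed no barcode. Depth limits the somatic classes, with 1955 UMIs per Sertoli-like barcode.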
